A study of Mus musculus with 6 samples.

Results

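The classic acute phase genes of mouse liver described here are Saa1, Saa2, Saa3 and Saa4 (serum amyloid A), Orm1, Orm2 and Orm3 (orosomucoid), the short pentraxins Apcs (serum amyloid P) and Crp (C-reactive protein), and Hp (haptoglobin). They were chosen by gene symbol as named members of these families and make up 10 of the 40803 mouse genes in the count table. RNA-seq was performed on whole liver of 6 mice, 3 in the rAAV8-Scramble group and 3 in the rAAV8-Hnf1aos1 group, with 1 library per mouse. The question was how these genes differed after knockdown of Hnf1aos1, an antisense long non-coding RNA.

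All 6 animals were male C57BL/6J mice fed a normal diet and injected in the tail vein at about 6 weeks of age, and their livers were taken 4 weeks later. Every animal received recombinant adeno-associated virus of serotype 8, which reaches mainly hepatocytes. The vector of the control group carried a scrambled short hairpin RNA and that of the knockdown group a hairpin against Hnf1aos1, each driven by the U6 promoter, and both vectors also expressed EGFP from the CAG promoter. Neither group was free of virus, so the comparison does not show the level in an uninfected liver. Each group of injected mice held 10 animals, of which 3 are in these data. A single hairpin targeted Hnf1aos1, so other effects of that hairpin and the loss of the transcript cannot be told apart.

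The acute phase response is the change in liver protein output that follows infection or injury. Interleukin-6 type cytokines acting through gp130 and STAT3, and interleukin-1 and tumour necrosis factor acting through NF-kappaB and C/EBP factors, switch hepatocytes to the synthesis of these secreted proteins. In the mouse the serum amyloid A proteins and serum amyloid P are the strong responders, and Crp, the strong responder in humans, changes little. Saa1 and Saa2 encode the acute phase apolipoproteins of HDL, Saa3 is made in many tissues and by macrophages, and Saa4 encodes a constitutive form. Orosomucoids are small plasma carriers that bind lipophilic compounds, and haptoglobin captures free haemoglobin.

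The members lie at 4 loci in the GRCm38 annotation of GENCODE. The Saa cluster is on chromosome 7, with Saa3 at 46711998 to 46715700 on the - strand, Saa4 at 46727998 to 46732603 on the - strand, Saa1 at 46740497 to 46742980 on the - strand and Saa2 at 46751790 to 46754313 on the + strand. The Orm genes are on the + strand of chromosome 4, with Orm1 at 63344560 to 63348163, Orm3 at 63356162 to 63359511 and Orm2 at 63362449 to 63365878. On chromosome 1, Crp spans 172698055 to 172833031 on the + strand and Apcs 172893961 to 172895041 on the - strand. Hp is on the - strand of chromosome 8, from 109575128 to 109579172. The span of Crp contains the processed pseudogene Gm38051, and no other member overlaps an annotated gene.

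Promoter sequences of 8 of the 10 members were found by symbol in the RefSeq table for GRCm38.p6. Each is 300 bases long and runs from 250 bases before to 50 bases after the gene start in RefSeq. Distances below refer to that start, which for some genes, among them Saa2 and Apcs, is not the GENCODE start given above. The promoters of Saa1, Saa2, Saa4, Orm2, Apcs and Crp are printed below because they include the largest and the smallest log2 fold changes of the Saa and the pentraxin genes and the largest of the Orm genes. Capitals mark letters that match the C/EBP consensus TTNNGNAA or the STAT consensus TTCNNNGAA on either strand. Positions are chr7:46742931-46743230 (- strand) for Saa1, chr7:46751583-46751882 (+ strand) for Saa2, chr7:46732554-46732853 (- strand) for Saa4, chr4:63362199-63362498 (+ strand) for Orm2, chr1:172895005-172895304 (- strand) for Apcs and chr1:172697806-172698105 (+ strand) for Crp, and each sequence is written 5′ to 3′ along its gene.
Saa1: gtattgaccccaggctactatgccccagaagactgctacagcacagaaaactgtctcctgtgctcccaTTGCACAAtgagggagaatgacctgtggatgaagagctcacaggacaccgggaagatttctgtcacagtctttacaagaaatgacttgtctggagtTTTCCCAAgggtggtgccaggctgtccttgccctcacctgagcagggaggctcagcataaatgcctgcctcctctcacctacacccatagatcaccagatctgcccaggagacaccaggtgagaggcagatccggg
Saa2: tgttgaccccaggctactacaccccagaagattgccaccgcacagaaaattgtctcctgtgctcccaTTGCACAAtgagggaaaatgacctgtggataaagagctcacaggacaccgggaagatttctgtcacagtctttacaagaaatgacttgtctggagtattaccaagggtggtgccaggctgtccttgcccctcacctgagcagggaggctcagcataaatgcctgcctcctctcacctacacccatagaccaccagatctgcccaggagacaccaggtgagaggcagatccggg
Saa4: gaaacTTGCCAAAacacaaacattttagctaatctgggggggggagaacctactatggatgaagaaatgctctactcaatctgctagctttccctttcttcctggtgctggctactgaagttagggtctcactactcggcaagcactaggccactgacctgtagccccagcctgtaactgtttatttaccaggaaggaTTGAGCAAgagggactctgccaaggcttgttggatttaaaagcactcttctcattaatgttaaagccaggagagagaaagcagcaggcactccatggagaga
Orm2: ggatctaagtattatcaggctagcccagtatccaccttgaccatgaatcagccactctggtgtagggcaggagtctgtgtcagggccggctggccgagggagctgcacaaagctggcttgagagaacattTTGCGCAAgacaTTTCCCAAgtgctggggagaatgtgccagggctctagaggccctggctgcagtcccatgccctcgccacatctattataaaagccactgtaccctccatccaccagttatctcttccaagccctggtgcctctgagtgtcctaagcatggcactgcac
Apcs: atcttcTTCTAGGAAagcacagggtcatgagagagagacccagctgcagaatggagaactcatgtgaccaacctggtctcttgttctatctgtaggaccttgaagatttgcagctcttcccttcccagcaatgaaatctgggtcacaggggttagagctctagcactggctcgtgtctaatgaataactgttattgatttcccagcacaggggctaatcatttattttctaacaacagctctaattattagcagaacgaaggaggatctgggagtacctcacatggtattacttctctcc
Crp: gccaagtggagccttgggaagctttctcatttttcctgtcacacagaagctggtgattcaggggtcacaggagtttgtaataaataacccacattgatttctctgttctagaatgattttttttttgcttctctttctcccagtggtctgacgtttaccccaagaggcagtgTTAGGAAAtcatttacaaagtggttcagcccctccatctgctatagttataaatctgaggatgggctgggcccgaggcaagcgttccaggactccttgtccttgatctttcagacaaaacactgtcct

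The promoters of Saa1 and Saa2 were identical at 287 of 301 aligned columns (95.3%), and those of Orm2 and Orm3 at 263 of 305 (86.2%). Saa1 and Saa2 share a C/EBP match, TTGCACAA on the reverse strand, 182 bases before the start in Saa1 and 183 in Saa2. Saa1 holds a further match, TTTCCCAA, 86 bases before its start, and Saa2 holds no second match. The same letters TTTCCCAA stand 108 bases before the start of Orm2, next to a palindromic match, TTGCGCAA, at 120 bases. In all, 7 of the 8 promoters held a C/EBP match, against 40.7% of the 32851 promoters of the table. The exception was Apcs, which alone held a STAT match, TTCTAGGAA, 244 bases before its start; 8.30% of all promoters held one. No match to the NF-kappaB consensus was found in the 8 windows, against 8.46% of all promoters. A TATAAA match was present in Orm2, Orm3 and Crp, and in 13.6% of all promoters. Both strands were searched, and no match in these 8 windows overlapped a match to another motif.

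Reads of the family members could in principle be exchanged between close copies. The protein-coding transcripts of Saa1 and Saa2 were identical at 93.9% of aligned positions, and those of Orm1 and Orm2 at 91.0%. No stretch of 100 bases was shared between Saa1 and Saa2, whereas 47 of the 676 such stretches of Orm1 (6.95%) also occurred in Orm2. Counts came from uniquely mapped reads, and how reads from the stretches shared by Orm1 and Orm2 were assigned is uncertain.

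The gene counts summed to 14704746 to 16532510 in the scramble libraries and 18021614 to 19462398 in the knockdown libraries, and ERCC spike-in RNAs took 1.38 to 1.52% and 1.18 to 1.24% of all counts. Normalized counts are raw counts scaled to the average TMM library size, and called genes are those with an adjusted p under 0.05 in the quasi-likelihood test of edgeR. Of 16327 genes tested, 1032 (6.32%) were called, 505 (3.09%) higher and 527 (3.23%) lower in the knockdown group. The number of called genes changed with the libraries: it was 630 without rAAV8-Hnf1aos1 replicate 1, 323 without replicate 2 and 1881 without replicate 3, and 630, 391 and 103 without rAAV8-Scramble replicates 1, 2 and 3. Hnf1aos1 itself gave normalized counts of 512, 491 and 620.3 in the scramble libraries and 278, 258 and 433 in the knockdown libraries, a log2 fold change of −0.74 (SE 0.195, edgeR adjusted p = 0.0625). Knockdown replicate 3 was the knockdown library nearest to the controls, and without it the gene was called (log2 fold change −1.01, edgeR adjusted p = 0.000261). Since Hnf1aos1 is an antisense RNA and the strand setting of the counting is not given in the sources used here, its level is uncertain.

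All 10 members had a higher group mean in the knockdown than in the scramble libraries, but the size of the difference varied widely between mice. Fitted log2 fold changes ran from 0.39 for Crp to 4.86 for Saa2, with a median of 1.53 against 0.00 over all genes tested (the fit set the all-gene median at −0.000396). The fitted fold was at least 2 for 9 members, Crp being the exception. None of the 10 was called by edgeR's quasi-likelihood test or by limma's voom, while 9 had an unadjusted p under 0.05 in edgeR, a level reached by 12% of all genes in the higher and 11.4% in the lower direction. DESeq2 called 7 of the 10 higher, against 3.82% of its genes (7.4% in either direction). For 7 members every knockdown library lay above every scramble library, a pattern seen in 15.2% of all genes.

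All 10 members had their lowest knockdown value in rAAV8-Hnf1aos1 replicate 3. Without that library edgeR called 6 of the 10 (Orm1, Orm2, Orm3, Apcs, Crp and Hp), against 6.06% of genes called higher in the same fit. This fit drops the library with the members' own lowest knockdown values, which by itself raises their estimates. The calls and adjusted p values without replicate 3, here and below, are therefore not independent support for a difference. Without rAAV8-Hnf1aos1 replicate 2 it called Saa4 and Hp, and without any other single library it called 0. Replicate 2 held the highest value for 6 members (Saa1 to Saa4, Orm3 and Hp) and replicate 1 for the other 4 (Orm1, Orm2, Apcs and Crp). In whole liver, a larger number of expressing cells and more RNA per cell cannot be told apart.

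**Figure D1:**
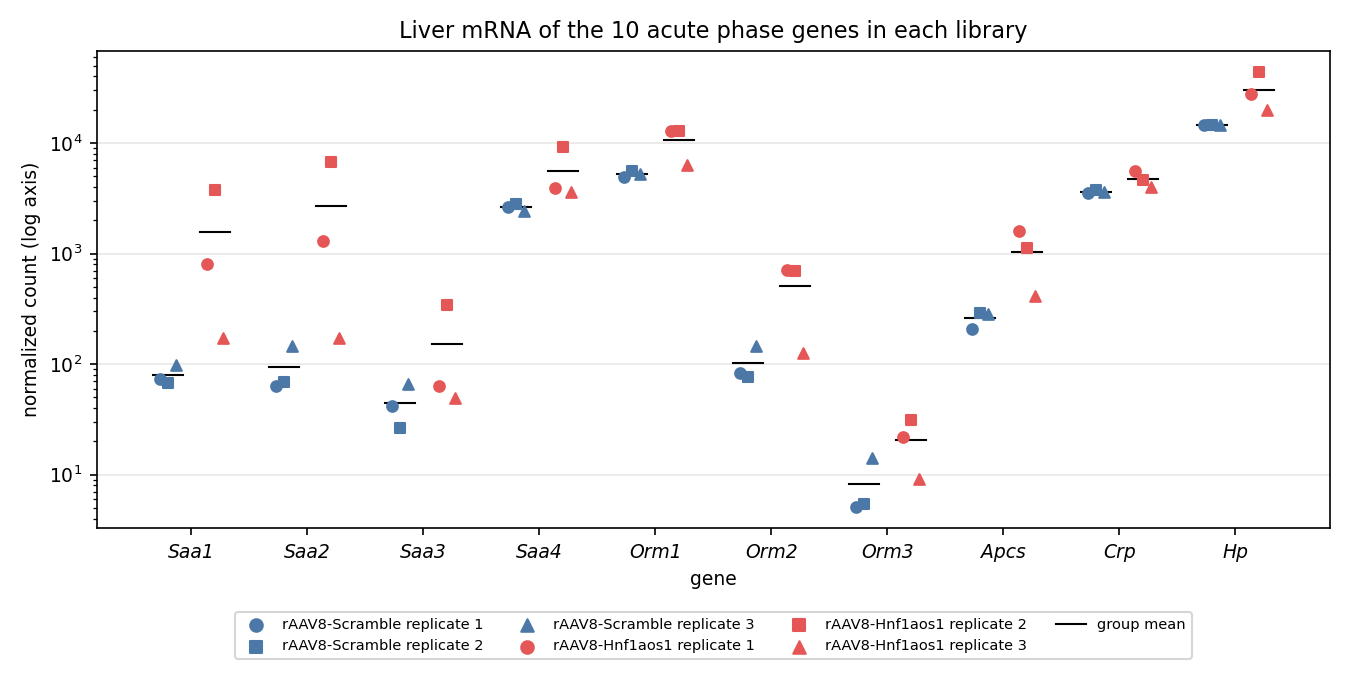
Normalized count (log axis) of each gene in the 6 libraries, with scramble mice in blue, knockdown mice in red, a marker shape per replicate and a black line at each group mean. The scramble points of Hp, Orm1, Crp and Saa4 lie close together, the knockdown points of Saa1 and Saa2 spread over more than an order of magnitude, and knockdown replicate 3 (triangle) is the lowest red point for every gene.

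Saa1, which encodes an acute phase apolipoprotein, gave normalized counts of 72.8, 68.1 and 99.0 in rAAV8-Scramble replicates 1, 2 and 3, and of 806, 3741 and 172 in rAAV8-Hnf1aos1 replicates 1, 2 and 3. The groups did not overlap, and the 3 knockdown mice were 10.1, 46.8 and 2.15 times the scramble mean of 80.0 ± 16.7 (SD, n = 3). In edgeR the log2 fold change was 4.30 (SE 1.41) with an edgeR adjusted p of 0.176, and DESeq2 gave an adjusted p of 0.00263, within a range of 0.00263 to 0.410 over the alternatives with all 6 libraries. Mice of the same group thus differed by 21.7 times between the highest and the lowest knockdown value, against 1.45 times among scramble mice.

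Saa2, its near-identical neighbour, gave 63.6, 69.2 and 147 normalized counts in the scramble libraries and 1287, 6671 and 173 in the knockdown libraries. The knockdown mice stood in the order seen for Saa1, with replicate 2 highest at 71.4 times the scramble mean and replicate 3 lowest at 1.85 times. Scramble replicate 3 was the highest control, and the lowest knockdown library exceeded it by little. The log2 fold change was 4.86 (SE 1.64, edgeR adjusted p = 0.187), the largest among the members in this fit, and adjusted p values over the alternatives with all 6 libraries ranged from 0.00305, by DESeq2, to 0.434.

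Saa3, the form also made by macrophages and other tissues, was low in all but 1 library. Normalized counts of Saa3 were 42.1, 26.3 and 66.0 in the scramble libraries and 62.9, 341 and 49.8 in the knockdown libraries, so that 2 of the 3 knockdown values lay inside the scramble range. The fitted log2 fold change of 1.75 (SE 0.985, edgeR adjusted p = 0.367) rested on knockdown replicate 2 and fell to 0.33 without it. Saa3 was the only member whose unadjusted value in edgeR's test exceeded the threshold.

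Saa4, the constitutive family member, started from a far higher level. It gave 2619, 2817 and 2444 normalized counts in the scramble libraries and 3937, 9169 and 3619 in the knockdown libraries, with no overlap. The 3 knockdown mice were at 1.50, 3.49 and 1.38 times the scramble mean. Its fitted log2 fold change was 1.09 (SE 0.415, edgeR adjusted p = 0.211); without knockdown replicate 2 it was 0.53 and the gene was called (edgeR adjusted p = 0.0443, against 0.418 at most with another library left out).

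**Figure D2:**
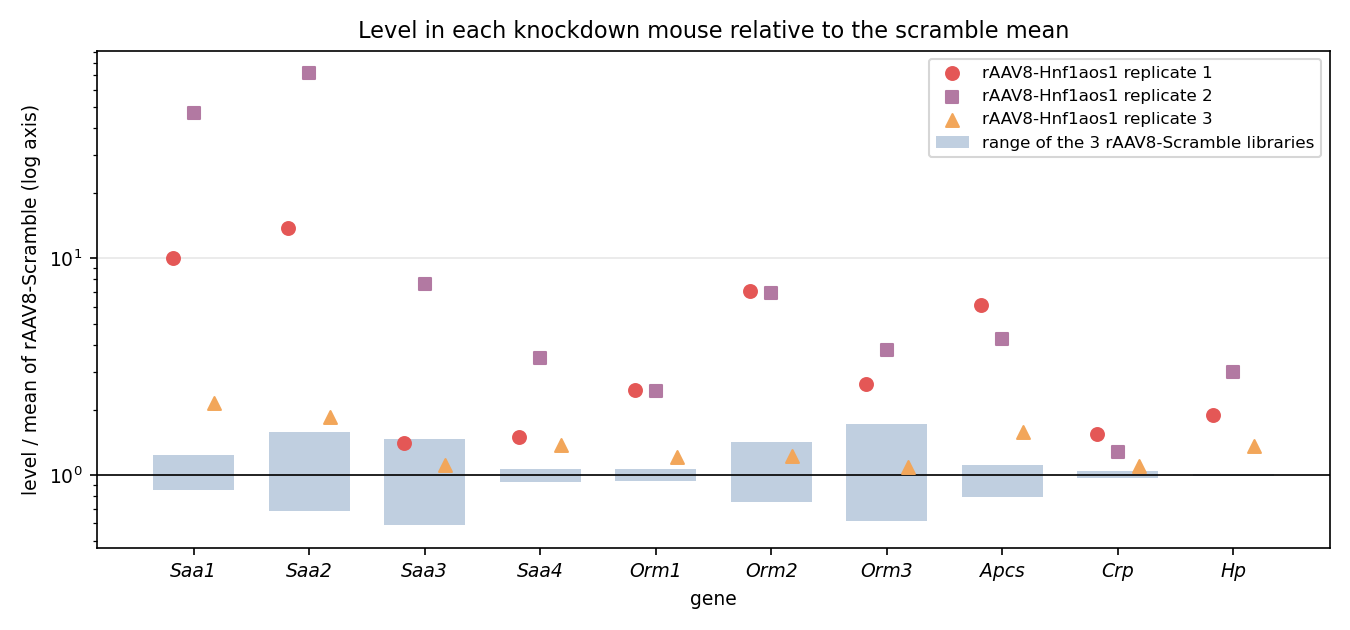
Level of each gene in the 3 knockdown mice divided by the mean of the 3 scramble mice (log axis), with blue bands for the range of the scramble libraries and a line at 1. Knockdown replicate 2 reached 71.4 for Saa2 and 46.8 for Saa1, replicate 1 was level with replicate 2 for Orm1 and Orm2, and replicate 3 lay between 1.09 and 2.15 for all 10 genes.

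Orm1, the main orosomucoid of mouse liver, gave normalized counts of 4918, 5599 and 5224 in the scramble libraries and 12926, 12870 and 6393 in the knockdown libraries. Knockdown replicates 1 and 2 agreed closely, at 2.46 and 2.45 times the scramble mean, and replicate 3 was at 1.22 times, still above every control. edgeR gave a log2 fold change of 1.03 (SE 0.269, edgeR adjusted p = 0.0772). DESeq2 gave an adjusted p of 7.77e-06, the alternatives with all 6 libraries reached up to 0.215, and the fit without knockdown replicate 3 gave a log2 fold change of 1.30 with an edgeR adjusted p of 6.62e-06.

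Orm2 had the same shape on a lower level, with 83.1, 76.8 and 145 normalized counts in the scramble libraries and 717, 701 and 125 in the knockdown libraries. Replicates 1 and 2 were at 7.05 and 6.90 times the scramble mean, whereas replicate 3 lay below scramble replicate 3, so the groups overlapped. The log2 fold change was 2.34 (SE 0.812, edgeR adjusted p = 0.191; DESeq2 adjusted p = 0.0306, up to 0.379 over the alternatives with all 6 libraries). Without knockdown replicate 3 it was 2.81 (edgeR adjusted p = 0.000177).

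Orm3 was close to the limit of detection, with raw counts of 5, 5 and 13 in the scramble libraries and 23, 33 and 10 in the knockdown libraries. Its log2 fold change was 1.31 (SE 0.541, edgeR adjusted p = 0.171), the groups overlapped, and DESeq2 did not call it (adjusted p = 0.231). At these counts a difference of the size seen for Orm1 was not resolved with all 6 libraries. Without knockdown replicate 3 the log2 fold change was 1.68 (edgeR adjusted p = 0.0390).

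Apcs encodes serum amyloid P, a calcium-dependent pentraxin that binds amyloid fibrils and chromatin. It gave 207, 291 and 287 normalized counts in the scramble libraries and 1597, 1115 and 415 in the knockdown libraries, with no overlap, and the knockdown mice were at 6.10, 4.26 and 1.58 times the scramble mean. In edgeR Apcs had a log2 fold change of 1.99 (SE 0.570, edgeR adjusted p = 0.133). DESeq2 called it (adjusted p = 0.00786, up to 0.204 over the alternatives with all 6 libraries), as did edgeR without knockdown replicate 3 (log2 fold change 2.38, adjusted p = 0.000144).

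Crp, the paralogous pentraxin that activates complement, had the smallest difference. Normalized counts of Crp were 3530.4, 3798 and 3601 in the scramble libraries and 5627, 4681 and 4030.5 in the knockdown libraries, so that every knockdown value exceeded every control, the lowest by a small margin. Its fitted log2 fold change was 0.39 (SE 0.120, edgeR adjusted p = 0.0757), a fold of 1.31. DESeq2 called it (adjusted p = 0.0377), with 0.00803 to 0.136 over the alternatives with all 6 libraries, and without knockdown replicate 3 the log2 fold change was 0.50 (edgeR adjusted p = 0.0114).

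Hp, whose product binds haemoglobin released from red cells, was the most abundant member and the most uniform among controls. It gave 14444, 14717 and 14434 normalized counts in the scramble libraries, a spread of 1.02 times, and 27510.5, 43502 and 19818 in the knockdown libraries. The knockdown mice were at 1.89, 2.99 and 1.36 times the scramble mean, all above every control. For Hp the fitted log2 fold change was 1.06 (SE 0.265, edgeR adjusted p = 0.0656, from 0.0131 to 0.203 over the alternatives with all 6 libraries). DESeq2 called it (adjusted p = 0.0228), and edgeR called it without knockdown replicate 3 (log2 fold change 1.29, adjusted p = 0.000441) and without replicate 2 (log2 fold change 0.71, adjusted p = 0.0428).

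**Figure D3:**
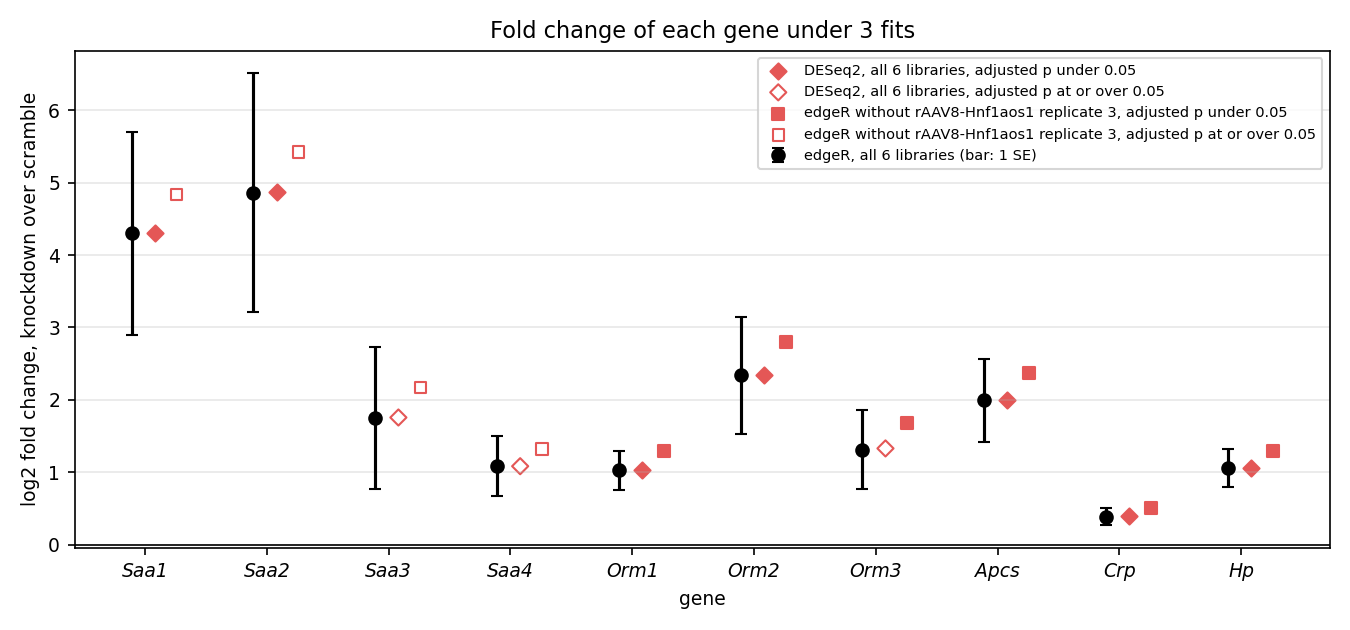
Log2 fold change (knockdown over scramble) of each gene from edgeR with all 6 libraries (black, bars of 1 SE), from DESeq2 (diamonds) and from edgeR without rAAV8-Hnf1aos1 replicate 3 (squares), with filled red symbols where the adjusted p was under 0.05. The estimates of edgeR and DESeq2 nearly coincide, and DESeq2 passed the threshold for 7 genes. Leaving out replicate 3, the lowest knockdown library for every gene, raised every estimate and passed it for 6.

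Levels of different genes can be compared only per length, for which the deposited TPM, which scale counts by transcript length and library, were used. In the scramble livers the order of mean TPM was Hp (1408 ± 32.2, SD, n = 3), Orm1 (878 ± 55.8), Crp (279.6 ± 10.01), Saa4 (163 ± 7.40) and Apcs (38.8 ± 7.38), with no overlap between neighbours. Saa2 (14.9 ± 7.94), Orm2 (12.7 ± 5.11), Saa1 (12.6 ± 3.02) and Saa3 (11.1 ± 5.26) followed and did not differ beyond their spread, and Orm3 was lowest at 0.440 ± 0.289 TPM. In the knockdown livers Hp (2775 ± 1064) and Orm1 (1708 ± 618) came first, with overlapping ranges. Saa2 followed by mean TPM (401 ± 506), then Crp (349 ± 69.7), Saa4 (326 ± 175), Saa1 (232 ± 276), Apcs (148 ± 88.1), Orm2 (60.8 ± 40.3) and Saa3 (34.7 ± 37.1), and each of these overlapped its neighbour in the order. The place of Saa2 rested on knockdown replicate 2, since its TPM of 200, 976 and 25.5 in replicates 1, 2 and 3 stood against 425, 333 and 289 for Crp. Orm3 stayed lowest at 1.03 ± 0.546 TPM.

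Together the members took 0.153, 0.162 and 0.164% of the gene counts in the scramble libraries and 0.317, 0.464 and 0.197% in the knockdown libraries, means of 0.159% ± 0.006 and 0.326% ± 0.134 (SD, n = 3). Hp held 54.6% ± 1.00 of the members' counts in scramble livers and 53.3% ± 3.30 in the knockdown group. The makeup of the Saa family differed more. Saa4 held 83.6, 86.2 and 73.4% of the family's TPM in the scramble libraries and 41.4, 24.8 and 77.1% in the knockdown libraries, so the dominant transcript was Saa2 in knockdown replicate 2 and the constitutive Saa4 in every other library. Apcs made up 10.2, 12.9 and 13.3% of the pentraxin TPM in the scramble libraries and 35.4, 31.5 and 16.6% in the knockdown libraries. Orm1 held 97.9% or more of the Orm TPM in every scramble library and 96.0% or more in every knockdown library.

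**Figure D4:**
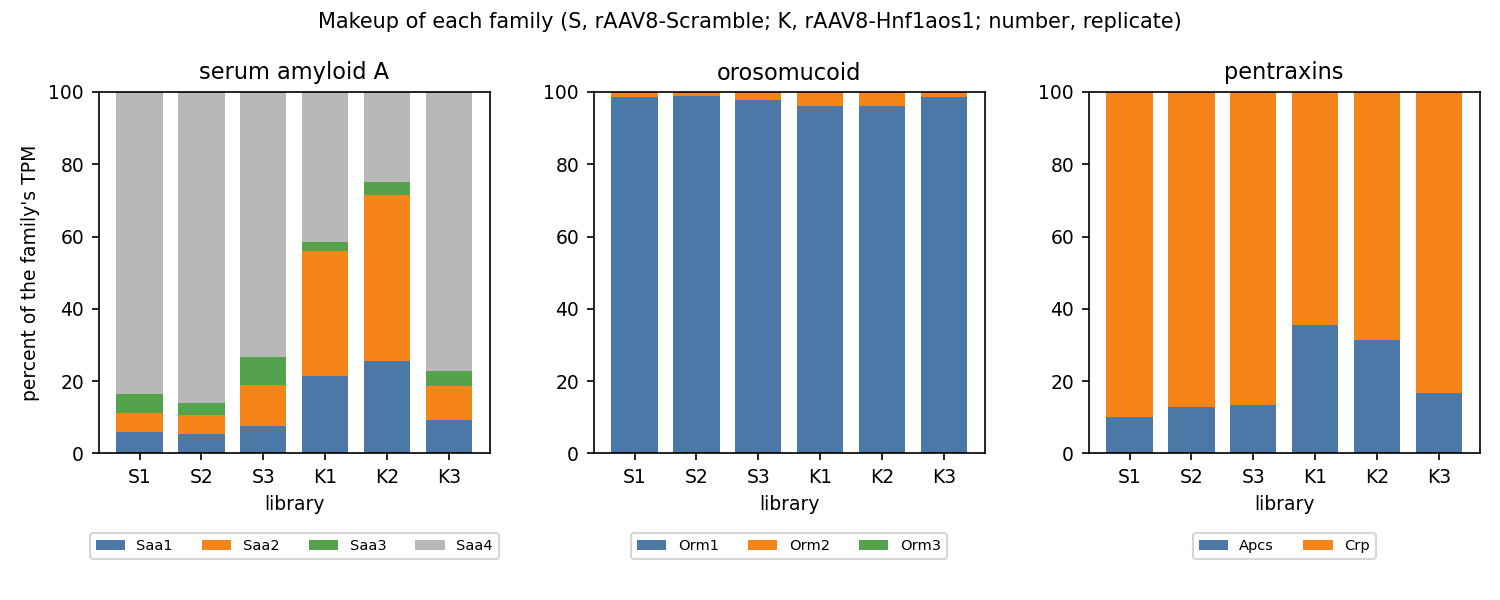
Percent of each family's TPM held by its members in the scramble (S1 to S3) and knockdown (K1 to K3) libraries, in stacked bars that each sum to the family total. Saa1 and Saa2 widen in K1 and K2 at the expense of the Saa4 share, Apcs widens against Crp in the same libraries, and the Orm bars remain almost wholly Orm1.

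Ratios of raw counts within a library need no scaling between libraries and were compared for 6 pairs by exact two-sided permutation tests, in which 3 against 3 cannot give less than 0.1. The log2 ratio of Saa1 to Saa4 was −5.17, −5.37 and −4.63 in the scramble libraries and −2.29, −1.29 and −4.39 in the knockdown libraries, without overlap (difference 2.40, exact permutation p = 0.1, 0.2 adjusted over the 6 ratios). That of Saa1 to Saa3 was 0.79, 1.37 and 0.58 against 3.68, 3.46 and 1.79, also without overlap (difference 2.06, exact permutation p = 0.1, adjusted 0.2). That of Crp to Apcs was 4.09, 3.71 and 3.65 against 1.82, 2.07 and 3.28 (difference −1.43, exact permutation p = 0.1, adjusted 0.2), the same complete separation. For the 3 remaining pairs the groups overlapped. The log2 ratio of Saa1 to Saa2 differed by −0.37 (exact permutation p = 0.3, adjusted 0.36), that of Orm1 to Orm2 by −1.07 (exact permutation p = 0.2, adjusted 0.3) and that of Orm1 to Orm3 by −0.36 (exact permutation p = 0.6, adjusted 0.6). The ratio of Saa1 to Saa2 counts lay between 0.672 and 1.15 in scramble livers and 0.561 and 0.995 in the knockdown libraries.

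Genes of the surrounding pathway were read from 7 lists, which have no gene in common other than Apoa1, present in 2 of them, and hold 19 different genes called by edgeR. The count rested on single libraries: it was 12, 7 and 45 without rAAV8-Hnf1aos1 replicates 1, 2 and 3, 13 and 4 without rAAV8-Scramble replicates 1 and 2, and 0 without scramble replicate 3. Each list count below is from all 6 libraries and stands against 6.32% of all genes called, and each median against the all-gene median given above.

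Of the cytokines and receptors that lie upstream, 13 of 19 genes were tested, 2 were called higher and 0 lower, and the median log2 fold change was 0.36. Il1r1, the signalling receptor of interleukin-1, rose by 0.88 (SE 0.186, edgeR adjusted p = 0.0347) and Osmr, the oncostatin M receptor subunit, rose by 0.67 (SE 0.178, adjusted p = 0.0477). Among the abundant genes of the list, the log2 fold change was 0.58 for the leukaemia inhibitory factor receptor Lifr (adjusted p = 0.169), 0.35 for the shared receptor chain Il6st (gp130, adjusted p = 0.0625), 0.96 for the tumour necrosis factor receptor Tnfrsf1a (adjusted p = 0.0863) and −0.27 for the interleukin-1 co-receptor Il1rap (adjusted p = 0.150). In this list 8 of the 13 had an unadjusted p under 0.05 in edgeR, and DESeq2 called 5. The ligands are named after their values were seen. Il1a, Il1b and Il18 were tested and not called, at log2 fold changes of 0.36, 0.91 and 0.02 (edgeR adjusted p of 0.281, 0.151 and 0.966). Il6, Il11, Lif, Osm, Il22 and Tnf were too low to be tested. Il6 had normalized counts of 0, 0 and 2.20 in scramble livers and 0, 0 and 0.906 in the knockdown libraries.

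Of the 32 signal transducers and transcription factors, all tested, 3 were called higher and 1 lower, with a median log2 fold change of 0.17. Socs3, the feedback inhibitor of gp130 signalling, gave 57.5, 51.6 and 59.4 normalized counts in scramble livers and 130, 325 and 272 in the knockdown libraries, and rose by 2.11 on the log2 scale (SE 0.339, edgeR adjusted p = 0.0169). Myd88, the adaptor of interleukin-1 and Toll-like receptors, rose by 0.58 (edgeR adjusted p = 0.0239). Nfkbia, the inhibitor that holds NF-kappaB in the cytoplasm, fell by 0.72 on the log2 scale (SE 0.119, adjusted p = 0.00867). The log2 fold changes of the abundant factors Hnf4a, Creb3l3 and Cebpa were −0.08, −0.09 and 0.25, with edgeR adjusted p of 0.724, 0.751 and 0.172. The other C/EBP genes of the list, Cebpb and Cebpd, are named after their values were seen. Cebpb was at 0.80 (SE 0.276, edgeR adjusted p = 0.150, DESeq2 adjusted p = 0.00540) and Cebpd at −0.12 (edgeR adjusted p = 0.781). In this list 12 of the 32 genes had an unadjusted p under 0.05 in edgeR, and DESeq2 called 8, against 7.4% of all its genes.

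Of the carriers, receptors and clearance enzymes of serum amyloid A, 13 of 14 were tested and none was called by edgeR or by limma's voom, while 8 had an unadjusted p under 0.05 and DESeq2 called 5. The median log2 fold change was 0.19. Apoa1 and Apoa2, the main HDL apolipoproteins that serum amyloid A displaces, were at 0.41 (adjusted p = 0.0581) and −0.42 (adjusted p = 0.0796) in edgeR. The lysosomal proteases Ctsl and Ctsb were at 0.68 (adjusted p = 0.0618) and −0.01 (adjusted p = 0.966).

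Of 10 genes for haemoglobin and haem scavenging, all tested, 1 was called higher and 0 lower, and the median log2 fold change was 0.14. That gene was Hpx, which encodes the haem-binding protein haemopexin. Normalized counts of Hpx were 27804, 27172 and 25371 in the scramble libraries and 53746, 71026 and 35842 in the knockdown libraries, with the knockdown mice in the same order as for Hp, and it rose by 1.00 on the log2 scale (SE 0.217, edgeR adjusted p = 0.0361). The haem and haemoglobin handling genes Lrp1, Ftl1 and Ambp had log2 fold changes of 0.00, 0.17 and 0.30 (adjusted p of 0.9995, 0.414 and 0.124).

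Of the genes whose products bind or act with pentraxins, 11 of 14 were tested and 5 were called higher, with a median log2 fold change of 0.46. They included the complement regulator C4bp (0.48, edgeR adjusted p = 0.0379), the C1q chains C1qa (0.55, adjusted p = 0.0277) and C1qb (0.46, adjusted p = 0.0459), and the Fc receptor Fcgr1 (1.09, adjusted p = 0.0388). C1qa, C1qb and Fcgr1 are transcribed mainly in macrophages and monocytes. Fcgr2b, an inhibitory Fc receptor, was at −0.21 (adjusted p = 0.217).

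Of 24 other positive acute phase proteins, all tested, 6 were called higher and 0 lower, 23 had a log2 fold change above 0, and the median was 0.97. Each fibrinogen chain gene rose, Fgb by 1.11 (SE 0.170, edgeR adjusted p = 0.00682), Fga by 1.06 (adjusted p = 0.0141) and Fgg by 1.04 (adjusted p = 0.0106). Serpina10, which encodes the protein Z-dependent protease inhibitor, rose by 1.17 (adjusted p = 0.00790) and Cp, the copper-carrying ferroxidase ceruloplasmin, rose by 0.54 (adjusted p = 0.0336). A2m, an acute phase antiprotease gene, rose by 2.61 (adjusted p = 0.0205) from no more than 3.08 normalized counts in any scramble library. In the knockdown libraries it had 10.5, 18.1 and 12.7. A2m thus passed the filter on low counts only through the knockdown libraries, so its direction was set in part by that filter. It is among the 6 called genes, and DESeq2 gave it no adjusted p. C3, the central complement component, was at 0.26 (edgeR adjusted p = 0.211). Some genes of this list had been singled out on these same libraries, so its direction is not independent evidence.

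Of 14 negative acute phase proteins, all tested, edgeR called 0 lower, and Ahsg, which encodes fetuin-A, rose by 0.52 (SE 0.124, edgeR adjusted p = 0.0345). In all, 5 of the 14 had an unadjusted p under 0.05, DESeq2 called 4 and limma's voom 1. Serpina6, which encodes corticosteroid-binding globulin and is named here after its values were seen, had a log2 fold change of −0.70 (edgeR adjusted p = 0.151) and was called lower by DESeq2 (−0.69, adjusted p = 0.00602) and by edgeR without knockdown replicate 3 (−0.99, adjusted p = 0.000386). The median log2 fold change was 0.17. Alb, Trf and Mup20, for albumin, transferrin and a major urinary protein, had log2 fold changes of 0.06, 0.31 and 0.75 (adjusted p of 0.841, 0.158 and 0.0698).

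**Figure D5:**
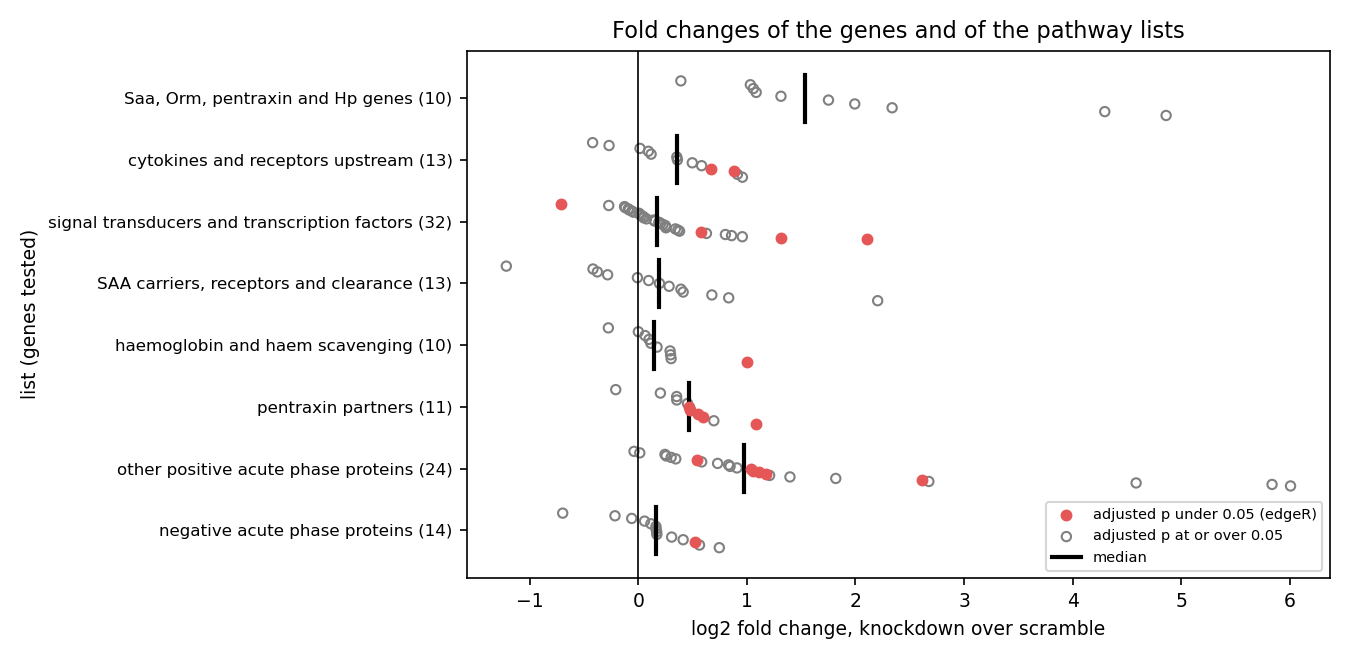
Log2 fold change (knockdown over scramble) of every tested gene of the 10 members and of the 7 pathway lists, with red points for genes called by edgeR, open points for the rest and a black line at each median. The medians were 1.53 for the members, 0.97 for the other positive acute phase proteins and between 0.14 and 0.46 for the remaining lists, and 1 red point lies below 0.

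Markers of other liver cells were measured beside these results. The summed normalized count of the 10 Kupffer cell and macrophage markers was 3783 to 4530 in scramble livers and 4916 to 6040 in the knockdown libraries, with all 10 above 0 on the log2 scale and 3 called higher (Lyz2, Clec4f and Adgre1). The sum of the 6 monocyte markers was 148 to 234 and 217 to 375, with Plac8 and Fcgr1 of the 5 tested called higher. Neutrophil markers summed to 48.3 to 73.7 in scramble livers and 82.4 to 138 in the knockdown libraries over 12 genes, without overlap. Only 1 of the 12 was tested, and it was not called, while Mpo and Ly6g were at 0 in every library. Hepatocyte markers were present in all libraries, and of 8 tested Tat, a liver transaminase, fell by 0.72 on the log2 scale (edgeR adjusted p = 0.00766). No stellate cell, sinusoidal endothelial, B cell, T and NK cell, cholangiocyte or erythroid marker was called by edgeR, DESeq2 or limma's voom, with 1 of these genes at an unadjusted p under 0.05. The cholangiocyte sum was 581 to 690 and 837 to 2548. Skeletal muscle markers summed to 906 to 3381 in scramble livers and 430 to 915 in the knockdown libraries, with Actn3 called lower, and the adipocyte marker Cfd was also called lower. Log2 fold changes were below 0 for 9 of 9 stellate, 7 of 8 sinusoidal endothelial, 7 of 7 muscle and 4 of 4 adipocyte markers tested. The T and NK cell, B cell, cholangiocyte and erythroid lists, with 5, 6, 4 and 6 genes tested, held both signs. So did the hepatocyte and monocyte lists. In all 8 marker genes were called, among 1032 called genes (6.32% of all genes tested). Without rAAV8-Hnf1aos1 replicates 1, 2 and 3, 4, 2 and 12 markers were called, among 630, 323 and 1881 genes. Without rAAV8-Scramble replicates 1, 2 and 3, 10, 1 and 0 were called, among 630, 391 and 103 genes. The part of any of these cells in the levels of the members was not tested.

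The genes whose pattern across the 6 libraries was most like that of each member were found by the root mean square difference of centred log2 CPM, over genes with a mean of at least 100 normalized counts. Saa2 was nearest to Lcn2, which encodes the siderophore-binding lipocalin (0.276), and Saa1 to Lcn2 as well (0.492), followed for both by the metalloreductase gene Steap4 (1.11 for Saa2 and 0.775 for Saa1). The third place went to Moxd1 for Saa2 (1.14) and Scara5 for Saa1 (0.920). Lcn2 gave 15.4, 31.8 and 58.3 normalized counts in scramble livers and 433, 2035 and 53.4 in the knockdown libraries, and knockdown replicate 3 lay below scramble replicate 3. Saa4 was nearest to Lbp, the lipopolysaccharide-binding protein gene (0.158), then Gnat1 (0.236) and Hpx (0.240), and Saa3 to the pattern receptor gene Tlr2 (0.554), Gm7694 (0.595) and Lbp (0.644).

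Hp was nearest to Hpx (0.0862), then Gnat1 (0.117) and Slc41a2 (0.127), and Orm1 to Il13ra1 (0.0616), Tnfrsf1a (0.0689) and Litaf (0.0733). Tnfrsf1a gave 771, 952 and 912 normalized counts in scramble livers and 2075, 1965 and 1079 in the knockdown libraries. Its near equality of replicates 1 and 2, as in Orm1, is part of the likeness by which it was picked. Orm2 was nearest to Gm54268 (0.392), Steap4 (0.439) and Tifa (0.451), and Orm3 to Alpk1 (0.231), BC023105 (0.253) and Gm7694 (0.308). Apcs was nearest to Plscr1 (0.172), Smpd3 (0.227) and the protease inhibitor gene Serpina3n (0.230), and Crp, with little variation of its own, to Wdr1 (0.0244), Tirap (0.0260) and Top3a (0.0419). The nearest fellow member was Saa1 for Saa2 (0.386), Saa4 for Hp (0.172) and Apcs for Orm2 (0.419). These are descriptions over 6 libraries that share the 2 groups. The floor of 100 normalized counts was set on the mean over all 6 libraries. Lcn2, Moxd1, Scara5, Tlr2, Alpk1 and Smpd3 had scramble means of 35.2, 9.21, 60.3, 38.4, 81.2 and 43.4. These genes passed the floor only through the knockdown libraries. Their likeness to members that were higher there was in part set by this floor.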

How the data were processed

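Liver RNA-seq of 6 mice was analysed, grouped by the sample titles. The methods state that the authors trimmed reads with Trimmomatic, used STAR for alignment to GRCm38, and took uniquely mapped exonic reads per gene from featureCounts; the submitters' processing notes name GRCm39. A stranded poly(A) kit is given in the methods and ribosomal RNA depletion in the labels. The authors deposited raw counts per gene, not normalized, and TPM values over the same features. Their normalized counts and their table of fold changes and p-values were not used. The 92 ERCC rows entered neither library sizes nor tests. In R 4.3.3, edgeR 4.0.16 (TMM, filterByExpr, robust quasi-likelihood) was fitted over all genes with Benjamini-Hochberg adjustment. DESeq2 1.42.0 and limma 3.58.1 (voom) were alternatives, and scripts were tested on simulated data. In that simulation DESeq2 recovered 92% of the changed genes, edgeR 92.25% and voom 91.5%. Unchanged genes made up 15.7% of the calls of DESeq2, 11.9% of those of edgeR and 11.1% of those of voom. Each share was larger than the adjusted p threshold aims at, and it was largest for DESeq2. The simulation changed 200 of 16327 genes by 2 on the log2 scale, up or down, and gave each gene the same dispersion in both groups. The data had more calls, and some members, such as Saa1, spread more widely in the knockdown group. The calls given above, those of DESeq2 most of all, are to be read with such an excess in mind, though its size need not carry over to them. The common biological coefficient of variation was 13.9%, so for well-counted genes the spread between mice sets the precision. Members, lists and tests were chosen with earlier results of these data known. The text names all members, Hnf1aos1, called list genes (up to 6 per list, some of which are not reported here), up to 4 abundant genes per list, called genes within 100 kb of a member, and the 3 genes nearest to each member by root mean square difference of log2 CPM (prior count 2). Pairs of libraries within a group differed by 7.10 to 28.7 per gene in chi-square, so none was a duplicate. Figures were drawn with matplotlib 3.10.9.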

Additional observations from a re-analysis of the deposited data

How the results depend on the processing

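The log2 fold changes of the 10 members lay above 0 in each of the 15 alternative fits that tested them, and 20 of these 149 values passed the adjusted p threshold. DESeq2 called 7 members (log2 fold changes of 4.30 for Saa1, 4.86 for Saa2, 1.04 for Orm1, 2.34 for Orm2, 2.00 for Apcs, 0.40 for Crp and 1.06 for Hp), Hnf1aos1 (−0.74) and 42 pathway list genes. Library sizes from the ERCC spike-ins, which shifted the median of all genes by 0.20, called 3394 genes, 61 list genes and 3 members (Orm1 at 1.23, Crp at 0.59 and Hp at 1.26). Without a filter on low counts 1902 genes, 30 list genes, 1 member (Crp at 0.39) and Hnf1aos1 (−0.74) were called, and limma's voom also called Hnf1aos1 (−0.77). The fit with a replicate block called 1 member (Hp, 0.98) and Hnf1aos1 (−0.77); the libraries share only a number (correlations of same-numbered deviations −0.0226, 0.0231 and 0.0032), so this block has no basis in the design. With 1 library left out, 103 to 1881 genes, 0 to 45 list genes and 0 to 6 members were called, and log2 fold changes ranged from 2.61 to 4.83 for Saa1, 2.97 to 5.42 for Saa2, 0.33 to 2.17 for Saa3, 0.53 to 1.32 for Saa4, 0.87 to 1.30 for Orm1, 2.01 to 2.81 for Orm2, 0.89 to 1.93 for Orm3, 1.54 to 2.38 for Apcs, 0.25 to 0.50 for Crp, 0.71 to 1.29 for Hp and −1.01 to −0.60 for Hnf1aos1. DESeq2's size factors, TMM without the members, library totals and a minimum mean of 50 counts changed no call of a member; the last left Orm3 untested. The cause of these changes was not tested. Family ratios and the share of the members kept their direction under each alternative run. Counting error was largest for Orm3, with raw counts of 5 to 33, and for Saa3, with 24 to 66 outside knockdown replicate 2.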

Other observations

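Genes within 100 kb of a member, members excluded, were read as well. GENCODE lists 32, of which 15 were tested and 0 were called by edgeR, DESeq2 or limma's voom. Over all genes edgeR called 6.32% and DESeq2 7.4%, and edgeR and voom called 0 of the 10 members too. Of the neighbours 1 had an unadjusted p under 0.05 in edgeR, against 12% of all genes in the higher and 11.4% in the lower direction. Their log2 fold changes ran from −0.63 to 0.36 with a median of 0.02. Around the Saa cluster 5 neighbours were tested and had a median of 0.06, around the Orm genes 4 with a median of −0.21, and around Hp 5 with a median of 0.04. Within 100 kb of Crp 1 gene was tested, at −0.18. The lactate dehydrogenase gene Ldha, named after its values were seen, was the 1 gene with the unadjusted p under 0.05 in edgeR. It lies within 100 kb of Saa1 and Saa2, with other genes between (log2 fold change 0.36, SE 0.154, edgeR adjusted p = 0.188).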
